A study of Mus musculus with 9 samples.

Results

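The genes that carry out meiotic recombination were examined in the testes of mice with a Piwil4 knock-in allele. The 8 genes, Prdm9, Spo11, Dmc1, Msh4, Msh5, Hfm1, Tex11 and Mlh3, were picked by symbol from the 22337 genes of the expression table, and all 8 were found. Whole testes of 9 mice at 3 weeks of age were profiled by mRNA sequencing. Of these, 3 were wild-type, 3 carried the allele on 1 chromosome (Piwil4 WT/R264W) and 3 on both (Piwil4 R264W/R264W), with the allele made by CRISPR-Cas9 in C57BL/6 zygotes and so present in every cell of the animal. R264W replaces an arginine of PIWIL4 (MIWI2), a PIWI protein that guides transposon silencing in fetal germ cells, with tryptophan. No other allele or treatment is named in the labels, and the replicates are labelled as separate samples, so p-values measure the spread between these testes.

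In meiotic prophase, PRDM9 marks the sites of recombination, SPO11 cuts both DNA strands there, and DMC1 loads on the resected ends and pairs them with the homologous chromosome. MSH4 and MSH5 form a dimer that holds some of these intermediates, HFM1 and TEX11 act with them, and MLH3 helps to resolve a subset as crossovers, which tie homologues together until they separate. At the age sampled the first wave of spermatogenesis is under way, so testes of equal age can differ in how many spermatids they hold.

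On the GRCm38 annotation the 8 genes lie on 7 chromosomes. Prdm9 (ENSMUSG00000051977) spans chr17:15543079-15564354, Spo11 (ENSMUSG00000005883) chr2:172977700-172993576 and Dmc1 (ENSMUSG00000022429) chr15:79561497-79605109. Msh4 (ENSMUSG00000005493) spans chr3:153857149-153906138, Msh5 (ENSMUSG00000007035) chr17:35028605-35046745 and Hfm1 (ENSMUSG00000043410) chr5:106840192-106926321. Tex11 (ENSMUSG00000009670), the X-linked member, spans chrX:100838648-101059667 and Mlh3 (ENSMUSG00000021245) chr12:85234520-85270599. All but Spo11 are on the minus strand, their longest coding transcripts have 10 (Prdm9) to 39 (Hfm1) exons, and the genes that overlap them (small RNAs and pseudogenes) have no row in the expression table.

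Promoter sequence from RefSeq (GRCm38.p6) was held for 6 of the 8 genes, Spo11 and Tex11 being without an entry. The 250 bases before each start were searched on both strands for CNCCTCAG (reverse complement CTGAGGNG), the motif of STRA8, a transcription factor of meiotic entry. It occurred in 3 of these 6 genes, Msh5, Hfm1 and, at the upstream one of its 2 listed starts, Prdm9, and in 6.46% of 32536 distinct windows of all genes. A short core of the MYB motif, AACNG (reverse complement CNGTT), occurred in 4 of the 6 and in 74.1% of all windows, so that it sets none of them apart. For both motifs a gene was counted with a match at any listed start, Prdm9 and Mlh3 having 2. The background was counted by window, so the shares are not in the same unit. The 30 bases around each STRA8 motif are shown 5′ to 3′ on the strand of the gene, in the order Prdm9 (chr17:15564377-15564406), Msh5 (chr17:35046686-35046715) and Hfm1 (chr5:106925938-106925967), with the motif in capitals.
Prdm9: tcttgttcccgCCCCTCAGccagctgtctg
Msh5: gatcgtcgcggCTGAGGTGacggaaaaggc
Hfm1: cggcctgaggcCTGAGGCGcaccgtgcggt
The motif lay on the strand of the gene at bases −41 to −34 from the Prdm9 start, and on the opposite strand at −82 to −75 from the Msh5 start and −66 to −59 from the Hfm1 start. The Msh5 site overlaps the first exon of a longer GENCODE transcript and the Hfm1 site falls inside the gene on that annotation. The Prdm9 window is shown whole (chr17:15564355-15564604, minus strand, 60.8% G and C), with the Dmc1 window (chr15:79605110-79605359, minus strand, 68.8% G and C) beside it as the gene with the widest range of levels, in which the motif's letters do not occur.
Prdm9: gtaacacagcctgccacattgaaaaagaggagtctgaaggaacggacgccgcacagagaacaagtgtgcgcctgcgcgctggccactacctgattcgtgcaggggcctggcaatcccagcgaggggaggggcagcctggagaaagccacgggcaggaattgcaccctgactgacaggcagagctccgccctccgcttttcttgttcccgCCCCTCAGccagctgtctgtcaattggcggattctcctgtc
Dmc1: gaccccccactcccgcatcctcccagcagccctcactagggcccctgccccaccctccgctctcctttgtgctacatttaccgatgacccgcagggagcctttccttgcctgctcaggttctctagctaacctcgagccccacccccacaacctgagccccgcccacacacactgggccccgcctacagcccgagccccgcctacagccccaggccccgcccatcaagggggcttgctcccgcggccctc
A match describes the sequence only, and no binding was measured.

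Library totals ran from 18.0 to 24.3 M estimated counts. In CPM (counts scaled to library size, with TMM factors between libraries), 3 counts, the most that a count of 0 leaves possible, were worth 0.122 to 0.171, counting error only. The lists of 12 leptotene and zygotene genes and 15 pachytene genes were detected in full in each testis. Of 7 epididymal genes, Lcn8 and Lcn9 were at 0 in all 9 testes and Defb2 in 8. Crisp1 and Adam7 were at 0 in 4 testes each but reached 883 and 177 counts in R264W/R264W replicate 1. Cst8 (up to 494 counts) and Rnase10 (up to 131) were detected in each testis. Piwil4, the edited gene, was low, at 1.76, 1.66 and 1.59 CPM in wild-type, 2.06, 1.12 and 2.10 in WT/R264W and 1.39, 1.18 and 1.02 in R264W/R264W. Its R264W/R264W testes lay below all wild-type testes, with a log2 fold change of −0.48 (SE 0.23, edgeR adjusted p = 1.0). These were 18 to 31 counts against 33 to 38, and in that comparison the groups did not overlap for 5.58% of all genes. Gene counts do not show the missense allele, so they check no label.

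How far the first wave had come was expressed as the round spermatid score, the mean log2 CPM of 20 spermatid genes, none of them a recombination gene. It ran over a wide range inside each genotype. It was 5.57, 2.18 and 0.93 in wild-type replicates 1, 2 and 3, 4.59, 3.11 and 0.37 in WT/R264W replicates 1, 2 and 3, and 1.97, 3.30 and 5.39 in R264W/R264W replicates 1, 2 and 3. The group means (±SD, n = 3) of 2.89 ± 2.40, 2.69 ± 2.14 and 3.55 ± 1.72 overlapped. WT/R264W replicate 3 and wild-type replicate 3 thus had the lowest scores, and wild-type replicate 1 and R264W/R264W replicate 3 the highest. In each of the 2 testes of lowest score, 2 of the 20 genes were at 0 counts, where the prior count sets the value. No score gene was at 0 in the others.

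All 8 genes were expressed in every testis, with 174 to 3809 counts. On the length-scaled FPKM of the deposited table (mean ± SD over 9 testes), Hfm1 at 32.2 ± 4.74 and Spo11 at 31.9 ± 2.06 were highest, followed by Mlh3 at 18.7 ± 1.75. Dmc1 at 15.3 ± 4.51 and Tex11 at 14.9 ± 3.35 came next. Msh4 at 10.7 ± 1.40, Msh5 at 7.38 ± 1.75 and Prdm9 at 5.20 ± 1.28 were lowest, so that the gene that places the breaks had a far lower length-scaled level than the gene that makes them. Hfm1 exceeded Spo11 in 5 of 9 testes and Dmc1 exceeded Tex11 in 5 of 9, so these neighbours did not differ beyond their spread. Spo11 was above Mlh3, Tex11 above Msh4 and Msh4 above Msh5 in 9 of 9, Msh5 above Prdm9 in 8 of 9, and Mlh3 above Dmc1 in 7 of 9.

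**Figure D1:**
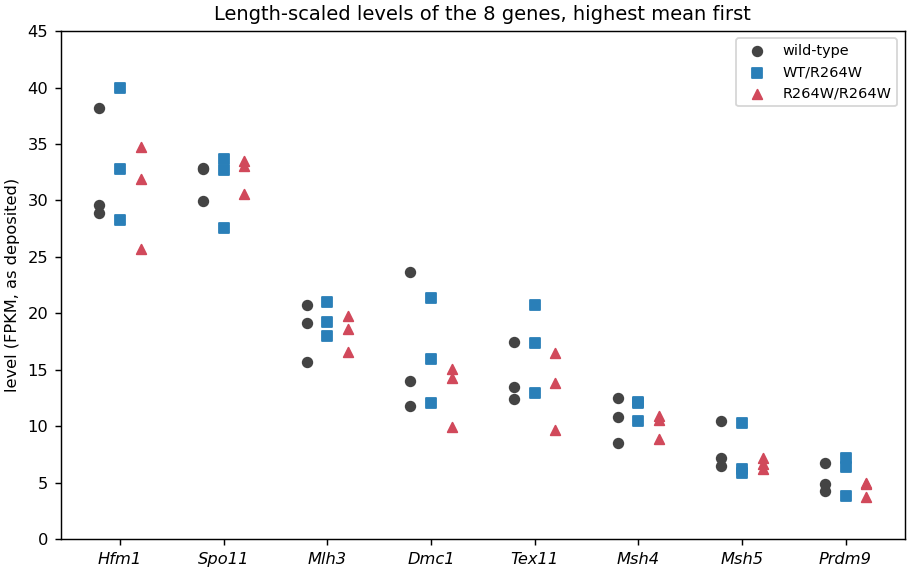
FPKM of the 8 recombination genes (vertical axis), ordered by mean, with 1 point per testis and marker shape for genotype (n = 3 each). Hfm1 and Spo11 overlap at the top (means 32.2 and 31.9), Dmc1 and Tex11 overlap in the middle, and Prdm9 is lowest at 5.20.

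The genes also differed in how much they varied between testes. The coefficient of variation of CPM over the 9 testes was 27.0% for Dmc1, 22.3% for Prdm9, 21.1% for Msh5 and 19.9% for Tex11, against a median of 14.3% over 15771 genes. Hfm1 (12.5%), Msh4 (10.1%), Spo11 (7.76%) and Mlh3 (5.94%) lay below that median. The highest testis had 2.25 times the Dmc1 level of the lowest, and 1.18 times its Mlh3 level.

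The question put to the 3 genotypes was whether the knock-in allele went with a change in recombination gene RNA. The levels of each gene are given below in CPM, in the order of replicates 1, 2 and 3. In whole testes, fewer cells of a type and less RNA per cell cannot be told apart. None of the 8 genes passed the test between any pair of genotypes. In R264W/R264W against wild-type, all 8 were tested and 0 passed an edgeR adjusted p of 0.05, beside 0.00% of the 15543 genes tested. DESeq2 also called 0 of the 8, and 0 passed an unadjusted p of 0.05 (background 1.26%) or had groups that did not overlap (background 5.58%). The counts for the 8 genes were likewise 0, 0 and 0 in R264W/R264W against WT/R264W (15463 genes, backgrounds 0.00%, 2.22% and 7.06%) and in WT/R264W against wild-type (15413 genes, backgrounds 0.00%, 1.11% and 5.36%), with 0 calls by DESeq2 in both. The comparisons share libraries pairwise and are not independent of each other.

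Prdm9, the histone methyltransferase whose zinc fingers choose the break sites, was at 13.7, 12.0 and 17.1 CPM in wild-type, 16.4, 9.99 and 18.5 in WT/R264W and 12.8, 12.7 and 9.90 in R264W/R264W. Its 3 highest testes, WT/R264W replicates 3 and 1 and wild-type replicate 3, came from the other two genotypes, yet all groups overlapped. The log2 fold change was −0.28 (SE 0.18) in R264W/R264W against wild-type, and −0.12 without wild-type replicate 3. Against WT/R264W it was −0.34 (SE 0.24), −0.56 without WT/R264W replicate 2 and −0.16 without WT/R264W replicate 3. Spo11, the protein that forms the breaks, was at 58.1, 48.9 and 53.2 in wild-type, 45.6, 54.6 and 53.5 in WT/R264W and 50.0, 55.3 and 57.4 in R264W/R264W. It was the steadiest early gene, its highest levels being in wild-type replicate 1 and R264W/R264W replicate 3, the testes with the highest spermatid scores. Its log2 fold change against wild-type was 0.02 (SE 0.10) in R264W/R264W, the sole positive value of the 8 in that comparison.

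Dmc1, the meiotic recombinase that carries out strand exchange between homologues, was at 28.6, 31.1 and 52.6 CPM in wild-type, 36.2, 27.4 and 46.3 in WT/R264W and 31.6, 33.8 and 23.3 in R264W/R264W. Wild-type replicate 3 and WT/R264W replicate 3 stood above the other 7 testes, which lay between 23.3 and 36.2. The log2 fold change in R264W/R264W against wild-type was −0.34 (SE 0.26, 95% interval −0.98 to 0.30). Without wild-type replicate 3 it was −0.01, and with the spermatid score as a covariate −0.22. Against WT/R264W it was −0.30 (SE 0.22), and −0.10 without WT/R264W replicate 3.

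Msh4, a subunit of the MutS-type dimer that stabilises crossover intermediates, was at 30.8, 35.3 and 40.1 CPM in wild-type, 35.4, 41.5 and 39.2 in WT/R264W and 35.8, 34.8 and 31.6 in R264W/R264W. Msh5, its partner, was at 18.8, 18.0 and 27.7 in wild-type, 17.4, 16.3 and 26.0 in WT/R264W and 16.4, 17.7 and 20.3 in R264W/R264W. The partners did not share a profile, since Msh5 was high in wild-type replicate 3 and WT/R264W replicate 3 and lay between 16.3 and 20.3 elsewhere, while Msh4 showed no such step. The FPKM ratio of Msh4 to Msh5 was 1.17 and 1.20 in these 2 testes, 1.18 and 1.23 in the 2 with the highest scores, and 1.59 to 2.08 in the other 5. In R264W/R264W the log2 fold changes against wild-type were −0.06 (SE 0.12) for Msh4 and −0.25 (SE 0.20) for Msh5, and against WT/R264W −0.18 (SE 0.10) and −0.13 (SE 0.20). Without wild-type replicate 3, the value of Msh5 against wild-type was −0.02, and without WT/R264W replicate 3 its value against WT/R264W was 0.11.

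Hfm1, a DNA helicase needed for most crossovers, was at 152, 139 and 181 CPM in wild-type, 135, 153 and 184 in WT/R264W and 168, 155 and 129 in R264W/R264W. Tex11, the X-linked meiotic protein of the same group, was at 43.7, 44.4 and 56.8 in wild-type, 57.2, 43.3 and 66.3 in WT/R264W and 54.0, 45.3 and 33.9 in R264W/R264W. For both genes the highest testis was WT/R264W replicate 3 and the lowest R264W/R264W replicate 3, and the groups overlapped. Against wild-type, the R264W/R264W log2 fold changes were −0.06 (SE 0.14) for Hfm1 and −0.12 (SE 0.19) for Tex11, and against WT/R264W −0.06 (SE 0.14) and −0.32 (SE 0.21). The last value was −0.17 without R264W/R264W replicate 3 or WT/R264W replicate 3. Mlh3, the endonuclease subunit that resolves crossovers, was at 91.4, 106 and 101 in wild-type, 97.0, 106 and 108 in WT/R264W and 106, 99.2 and 94.0 in R264W/R264W. It was the most even of the 8 across testes, and its R264W/R264W log2 fold change was −0.00 (SE 0.09) against wild-type and −0.05 (SE 0.08) against WT/R264W.

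**Figure D2:**
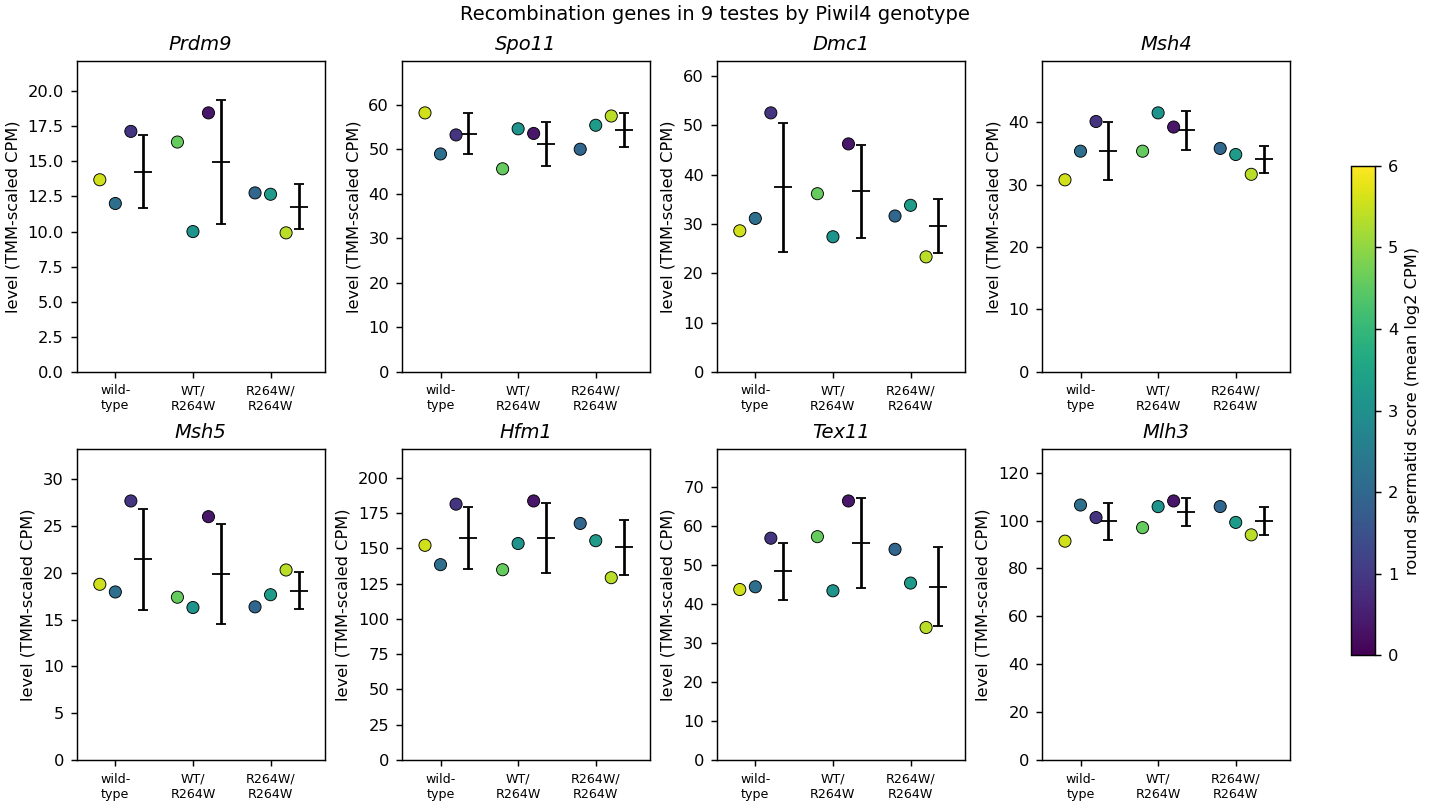
TMM-scaled CPM of each gene (vertical axis, from 0) by genotype, with 1 point per testis coloured by round spermatid score, and the mean ± SD of 3 testes beside them. The groups overlap for every gene, and the darkest points (scores 0.37 and 0.93) are the highest for Prdm9, Dmc1, Msh5 and Hfm1.

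Adjusted p-values from edgeR were 1.0 for each of the 8 genes against wild-type, in both knock-in genotypes, and 0.948 in R264W/R264W against WT/R264W. Taken as a list, 7 of the 8 had a log2 fold change below 0 in R264W/R264W against wild-type, where 52.0% of all genes did, with a median of −0.09 against −0.01 for all genes. This count rested on single testes, being 3 of 8 without wild-type replicate 3 (median 0.01) and 5 of 8 without R264W/R264W replicate 3 (median −0.02). Against WT/R264W, 7 of 8 were below 0 (48.6% of all genes), with a median of −0.16 against 0.01, and 5 of 8 without WT/R264W replicate 3 (median −0.06). In WT/R264W against wild-type, 4 were higher and 4 lower (55.1% of all genes lower), with log2 fold changes from −0.12 (Msh5) to 0.20 (Tex11) and a median of 0.02 against −0.02. Without wild-type replicate 3 or WT/R264W replicate 2, 1 of the 8 was lower. The 95% intervals of the 24 fold changes ran from −0.98 to 0.69, all inside a change of 2-fold either way, and with 3 testes a group an exact two-sided permutation test could not fall below p = 0.1.

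**Figure D3:**
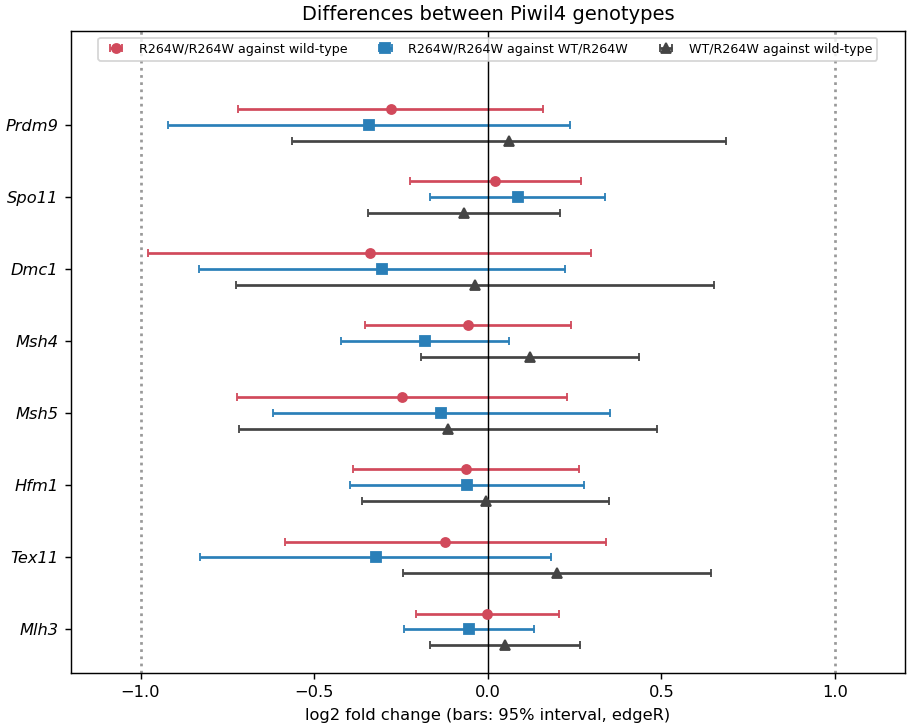
Log2 fold change of each gene in the 3 genotype comparisons (horizontal axis), with 95% intervals from edgeR, a solid line at 0 and dotted lines at 2-fold either way. Every interval crosses 0 and none reaches 2-fold, the nearest being Dmc1 in R264W/R264W against wild-type (−0.98 to 0.30).

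The other genes of the pathway were taken as 3 lists of 10 genes for break formation, 21 for end processing and strand exchange and 19 for crossover formation, all of them tested in each comparison. None had an edgeR adjusted p under 0.05 between genotypes. At an unadjusted p of 0.05, Rnf212b, a crossover factor of the RING finger family, was lower in R264W/R264W than in WT/R264W (log2 fold change −0.37, SE 0.15), the single call of the 50 in that comparison (background 2.22%, edgeR adjusted p = 0.948). Rec114, an accessory protein of break formation, was the single such call in WT/R264W against wild-type (0.51, SE 0.21, background 1.11%, edgeR adjusted p = 1.0), and R264W/R264W against wild-type had 0 (background 1.26%).

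Each gene was also fitted on the spermatid score over the 9 testes, by least squares on log2 CPM without genotype terms. Slopes, in log2 CPM per score unit, were negative for 7 of the 8 genes, and Spo11 had 0.02 (SE 0.02). The steepest was Dmc1, at −0.15 (SE 0.05), which amounts to 0.602 times the level over 5 score units. Tex11 followed at −0.11 (SE 0.04), then Prdm9 at −0.08 (SE 0.06), Msh5 at −0.08 (SE 0.05), Hfm1 at −0.08 (SE 0.02), Msh4 at −0.06 (SE 0.02) and Mlh3 at −0.04 (SE 0.01). Negative slopes were found for 55.9% of 15771 genes, and the median was −0.08 for the 8 genes and −0.01 for all genes. Dmc1's slope stood at the 3.21 percentile of all genes, Tex11's at 7.62 and Prdm9's at 14.2. In each of the 3 genotypes taken alone the slope was negative for Prdm9, Dmc1, Msh4, Hfm1, Tex11 and Mlh3, for Msh5 it was negative in 2 and for Spo11 in 1. On log2(FPKM + 0.1) all 8 slopes were negative, Spo11's being −0.01, so that its direction depended on the scaling.

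In an edgeR fit of all 9 testes with genotype terms, Dmc1 (slope −0.14, SE 0.04, adjusted p = 0.0218), Hfm1 (−0.07, SE 0.02, adjusted p = 0.0278) and Tex11 (−0.09, SE 0.03, adjusted p = 0.0482) fell with the score. These were 3 of the 8 genes, all lower, where 25.9% of all genes were called, 8.37% lower and 17.5% higher. The other 5 did not pass (edgeR adjusted p = 0.0878 for Msh4, 0.113 for Mlh3, 0.197 for Msh5, 0.288 for Prdm9 and 0.682 for Spo11). DESeq2, a fit without genotype terms, a score of 15 genes without the late spermatid genes and a score of pachytene genes each called the same 3 genes. In that order, these fits called 25.7%, 30.9%, 28.1% and 35.1% of all genes. The calls rested on single testes. There were 0 without WT/R264W replicate 3, without wild-type replicate 3 or without R264W/R264W replicate 3, where 16.4%, 14.8% and 15.3% of all genes were called. There was 1 without wild-type replicate 1 (Hfm1) or R264W/R264W replicate 1 (Dmc1). There were 2 without R264W/R264W replicate 2 (Dmc1 and Hfm1), 3 without wild-type replicate 2 or WT/R264W replicate 1, and 4 without WT/R264W replicate 2, where Msh4 joined. Leaving out these testes moved the share of all genes called between 13.1% and 38.8%, and the sign of each of the 8 slopes held in all 9 least squares fits, where Prdm9 ranged from −0.12 to −0.05 and Msh5 from −0.10 to −0.04. In the edgeR fits Spo11 turned to −0.01 without wild-type replicate 1, and the other 7 slopes were negative in all 9.

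**Figure D4:**
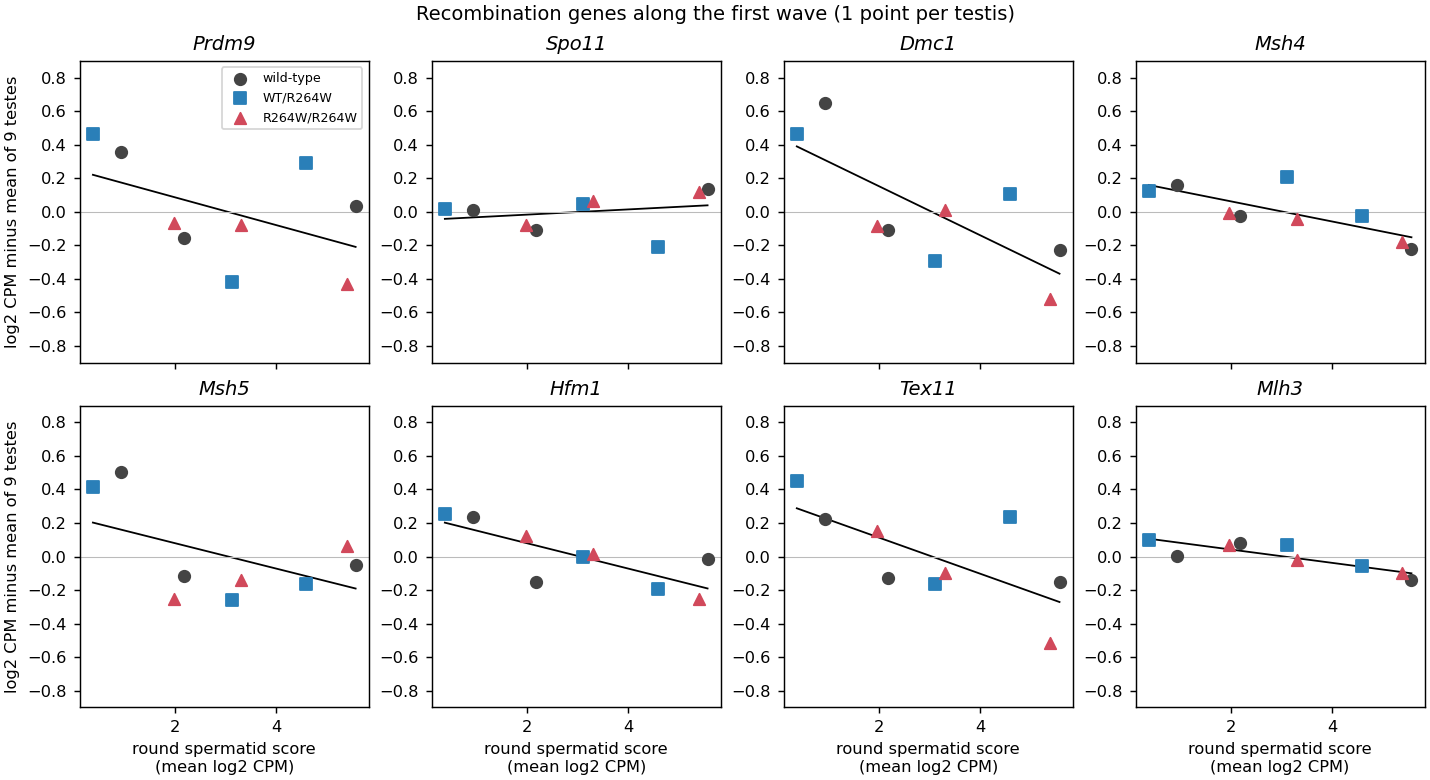
Log2 CPM of each gene minus its mean over 9 testes (vertical axis) against the round spermatid score (horizontal axis), with 1 point per testis, marker shape for genotype and a least squares line. The 2 testes of lowest score are the highest for Prdm9, Dmc1, Msh5 and Hfm1. Prdm9 and Tex11 are also high in WT/R264W replicate 1 (score 4.59), and Spo11 is nearly flat (slope 0.02).

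The profiles differed in shape. The 2 testes of lowest score were the highest for Prdm9, Dmc1, Msh5 and Hfm1. Among the other 7, the 2 of highest score had the highest Msh5 (20.3 and 18.8 CPM), with Dmc1 at 23.3 and 28.6 CPM. Prdm9 and Tex11 were high in the 2 testes of lowest score and again in WT/R264W replicate 1, whose score of 4.59 was the third highest. The SE of the least squares slope, which reflects scatter about the line, was 0.01 to 0.02 for Mlh3, Msh4, Hfm1 and Spo11. It was 0.04 to 0.06 for Tex11, Msh5, Dmc1 and Prdm9. The length-scaled ratio of Dmc1 to Spo11 was 0.633 and 0.722 in the 2 testes of lowest score and 0.299 and 0.358 in the 2 of highest score, but 0.580 in WT/R264W replicate 1 and 0.369 to 0.467 in the other 4. The place of WT/R264W replicate 1 depended on the score used. Its mean log2 CPM of pachytene genes, 8.03, was below that of WT/R264W replicate 2 (8.16) and R264W/R264W replicate 2 (8.05). Their round spermatid scores were lower, at 3.11 and 3.30.

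Other genes of the pathway were called along the score by the edgeR fit with genotype terms, and their slopes below are the least squares ones. Of the 10 break formation genes, 5 fell and 0 rose, beside 8.37% and 17.5% of all genes. They were Mei4 (slope −0.19 log2 CPM per unit, SE 0.04) and Gm960 (−0.15, SE 0.04), which encodes the SPO11 partner TOPOVIBL, with Hells (−0.12), Hormad1 (−0.11) and Zcwpw1 (−0.10). Of the 21 genes of end processing and strand exchange, 3 fell, Rad51ap2 (−0.18, SE 0.04), Meiob (−0.12, SE 0.02), which encodes a single-strand DNA binding protein, and Brca2 (−0.07, SE 0.03), a recombinase loader. None of these 21 rose, the highest slopes being 0.06 for Brme1 and 0.05 for Rpa1. Of the 19 crossover genes, Mcm8 (−0.11, SE 0.02), a helicase, fell and Mus81 (0.09, SE 0.03), the nuclease of an alternative crossover route, rose. Slx4 had 0.07 and did not pass. With 1 library left out, 2 to 5 break formation genes fell (2 without wild-type replicate 1, wild-type replicate 3 or WT/R264W replicate 3), 2 to 10 strand exchange genes fell (10 without WT/R264W replicate 1) and 0 to 3 of these rose. Of the crossover genes 1 to 2 fell and 0 to 3 rose, with 0 rising without wild-type replicates 1 or 3, WT/R264W replicate 3 or any R264W/R264W testis. In the same fits 2.12% to 17.4% of all genes fell and 10.7% to 21.4% rose. The median slopes of the lists were −0.08, −0.05 and −0.04, in the order of the pathway.

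**Figure D5:**
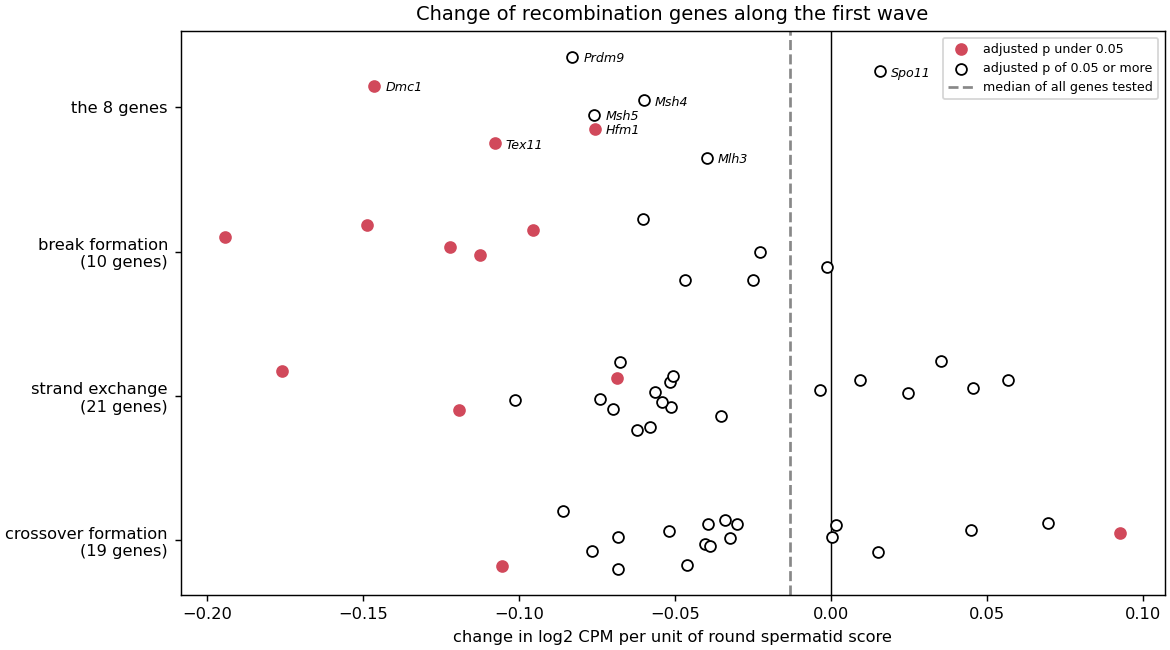
Change in log2 CPM per unit of round spermatid score (horizontal axis) for the 8 genes and the 3 pathway lists, 1 point per gene, filled where the edgeR adjusted p was under 0.05, with the median of all 15771 genes as a dashed line at −0.01. Dmc1, Tex11 and Hfm1 are the filled points among the 8, and 5 of 10 break formation genes, 3 of 21 strand exchange genes and 2 of 19 crossover genes are filled.

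Cell type lists were counted along the score in the same edgeR fit, where 8.37% of all genes fell and 17.5% rose. Of 15 pachytene genes 11 rose, and of 12 leptotene and zygotene genes 5 fell and 2 rose. Of 12 Sertoli cell genes 4 fell and 1 rose, with summed levels of 1613 to 2495 CPM, and of 11 spermatogonial genes tested 3 fell and 1 rose, with 279 to 384 CPM over all 13. Of 7 Leydig cell genes 2 rose, with 153 to 387 CPM. Of 7 macrophage and 6 endothelial genes 1 each rose, near the share of all genes, while 0 of 6 peritubular myoid genes passed. With 1 library left out, 6 to 12 pachytene genes rose (6 without wild-type replicate 3 or R264W/R264W replicate 3), 2 to 6 leptotene and zygotene genes fell (2 without either of the same testes), and 1 to 11 Sertoli cell, 0 to 6 spermatogonial and 0 to 4 myoid genes fell, with 11, 6 and 4 without WT/R264W replicate 1 and 1, 0 and 0 without wild-type replicates 1 or 3. The share of all genes that fell moved too, from 2.12% without wild-type replicate 3 to 17.4% without WT/R264W replicate 1. The share that rose moved from 10.7% without wild-type replicate 1 to 21.4% without WT/R264W replicate 1. Lists of tissue outside the testis were low, with at most 8.94 CPM summed over muscle, 27.6 over adipose and 55.1 over epididymal genes, the last in R264W/R264W replicate 1. TMM factors were 1.04 in the testis of lowest score and 0.938 in that of highest score. The part of cell mixture and scaling in the slopes of the recombination genes was not tested.

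Genes with the most similar profiles were sought by the root mean square difference of centred log2 CPM over the 9 testes, taken as a description. Prdm9 was closest to Trim12a (0.0812), Stra8 (0.0969) and Taf7l (0.10), and Dmc1 to Tex16 (0.10), Trim12c (0.102) and Rgs2 (0.103). Msh5 was closest to Hsbp1l1 (0.0965), Ttc38 (0.108) and Suv39h1 (0.111), and Tex11 to Bhlhb9 (0.0659), Lcor (0.0691) and Lgr4 (0.0697). Hfm1 was closest to Lrrc40 (0.0392), Cnep1r1 and Bloc1s6, Msh4 to Rpl10a (0.0379), Banf1 and Rpl19, Spo11 to Ift27 (0.0257) and Pih1d2, and Mlh3 to Saraf (0.0198), Gm42742 and Arpc4. These last 4 genes varied least of the 8 (coefficients of variation from 5.94% for Mlh3 to 12.5% for Hfm1). Of all genes, 33.6% to 50.0% lay within 0.2 of their profiles, against 2.28% to 13.0% for the other 4. Among the 8 themselves, Mlh3 and Msh4 were the most alike (0.0906), then Prdm9 and Tex11 (0.140), and Dmc1 and Spo11 the least (0.390).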

How the data were processed

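Reads were filtered by the authors with fastp 0.18.0 and assembled with StringTie 1.3.1 on mm39, per the submitters' processing notes. The deposited table holds an FPKM value (per length and depth, by StringTie) and an estimated count for each gene and testis, 89.2% of the counts being exactly whole as written, with no tolerance. Aligner, annotation, counting tool and strand setting are not given in the sources used here. Coordinates are those of GRCm38 (GENCODE), in which 22232 of 22337 gene IDs (99.5%) were found. The authors' tool for differences was DESeq2.

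Counts were rounded. In R 4.3.3, edgeR 4.0.16 compared the genotypes 2 at a time (filterByExpr, TMM, quasi-likelihood test, two-sided, Benjamini-Hochberg over all genes), after a test on simulated data. DESeq2 1.42.0 and limma 3.58.1, on log2(FPKM + 0.1) and log2(FPKM + 1) for a gene mean of 0.5 FPKM or more, were alternatives, as were other filters, size factors and single libraries left out. The score averaged log2 CPM (prior count 1) of 20 spermatid genes. Its test in all 9 libraries was added after the data were seen. Members and lists were chosen with earlier results of these data known. Named were the 8 genes, Piwil4, pathway genes at an unadjusted p under 0.05, the 2 steepest slopes per list and direction, and the 3 nearest profiles per gene. A few genes that this rule picks are not reported here. The other pathway genes past the adjusted threshold along the score were named after their values were seen.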

Additional observations from a re-analysis of the deposited data

How the results depend on the processing

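Between genotypes, 0 of the 8 genes passed the adjusted threshold under every alternative run, the smallest adjusted p being 0.634. At an unadjusted edgeR p of 0.05, 1 of the 8 passed in R264W/R264W against WT/R264W without WT/R264W replicate 2. The share of all genes was not counted for that fit, and the other alternatives gave 0. Of 216 fold changes under alternatives that kept all libraries 10 changed sign, all of them small, and the cause was not tested. In R264W/R264W against wild-type Mlh3 became 0.0090 with DESeq2, 0.0086 with its size factors and 0.0056 with at least 10 counts per library, and with the score as covariate Mlh3 became 0.0255 and Spo11 −0.0090. Against WT/R264W, Hfm1 became 0.0351 with the score as covariate. In WT/R264W against wild-type, limma on log2(FPKM + 0.1) gave 0.0264 for Dmc1 and 0.0603 for Hfm1, and on log2(FPKM + 1) 0.0239 and 0.0588. Of 144 fold changes with 1 library left out, 27 changed sign. Their ranges in R264W/R264W against wild-type were −0.1417 to 0.0555 (Hfm1), −0.0586 to 0.0607 (Mlh3), −0.1457 to 0.0451 (Msh4), −0.0266 to 0.0882 (Spo11) and −0.2818 to 0.0348 (Tex11). Against WT/R264W they were −0.1527 to 0.0691 (Hfm1) and −0.26 to 0.11 (Msh5). In WT/R264W against wild-type they were −0.24 to 0.29 (Dmc1), −0.14 to 0.11 (Hfm1), −0.0047 to 0.13 (Mlh3), −0.36 to 0.11 (Msh5), −0.12 to 0.29 (Prdm9) and −0.1031 to 0.0113 (Spo11). Along the score, 0 to 4 genes passed with 1 library left out, against 3 with all 9. Whether the replicate numbers pair the testes could not be told from the correlations of same-numbered deviations, which ran from −0.73 to 0.78. For replicates 1 and 3 they were 0.71 and 0.78 in WT/R264W against wild-type, and −0.73 and −0.72 in R264W/R264W against wild-type. The cause was not tested. With the replicate block 0 of the 8 genes passed in each comparison. Groups of 3 testes and library totals of 18.0 to 24.3 M limit what could be detected.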
